A study of Mus musculus with 24 samples.

Results

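The mitochondrial ribosomal protein genes were taken as all genes whose name on the array was Mrpl or Mrps followed by digits and an optional letter. This rule gave 75 genes, 46 named Mrpl and 29 named Mrps, among 27962 gene names on the array. They were read by 125 of the 41174 probes that were no controls. All 75 genes passed the filter on dim probes and were tested beside the other genes, 16643 in all, and each of the 75 was well above background on all 24 arrays.

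RNA of CD4+ T cells sorted from female C57BL/6 mice was measured on 1-colour Agilent arrays. The study asked how loss of Trim28, a co-repressor that acts on chromatin, changes gene expression in T cells. The 6 groups held 4 arrays each. The wild type (WT) groups were naive CD4+ CD25- cells taken unstimulated, naive cells given anti-CD3 and anti-CD28 on coated plates for 13 h, and CD25+ regulatory T cells (Treg). The 3 Trim28CKO (CKO) groups were the same populations from mice with a conditional deletion of Trim28 in T cells. The mice were 6 or 7 weeks old, and both ages occurred in every group. The promoter that drove the deletion is not given in the sources used here. The CKO Treg arrays carry the treatment tag of stimulated cells, while the WT Treg arrays carry that of unstimulated cells, and the study design describes stimulation of naive cells alone. A difference between the 2 Treg groups therefore cannot be told apart from a possible difference in treatment. With both ages in every group, the 4 arrays of a group cannot all come from the same mouse. Nothing in the labels says whether each array had a mouse of its own. The p-values therefore measure the spread between these arrays, which may in part be technical.

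Mitochondria hold a small genome of their own and translate its messages, all of them for subunits of the respiratory chain and ATP synthase, on a ribosome of their own. The RNA of that ribosome is transcribed inside the organelle, while all of its proteins are encoded in the nucleus, made in the cytosol and imported. Part of these proteins have counterparts in the bacterial ribosome and part are found only in mitochondria. T cells leaving quiescence after T cell receptor stimulation are known to enlarge their mitochondria and to need mitochondrial translation for growth and effector function.

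The Mrpl genes encode proteins of the large subunit, which joins amino acids, and the Mrps genes encode proteins of the small subunit, which reads the message. There are exceptions: Mrps18a and Mrps30 proteins sit in the large subunit, and Mrps36 has since been placed in the oxoglutarate dehydrogenase complex. Counted by position, with Mrps36 left under its gene name, 48 of the 75 belonged to the large and 27 to the small subunit, and 45 had a bacterial counterpart.

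The start regions of the genes were looked up because the genes moved together on stimulation. RefSeq start regions on GRCm38.p6 were found by symbol for 66 of the 75 genes. Each sequence here is the 120 bases before the annotated start, 5′ to 3′ on the gene's strand, for the 4 genes with the largest rise on stimulation of WT cells, Mrps6, Mrps22, Mrpl12 and Mrpl20, and the 2 with the smallest, Mrpl24 and Mrps26. Capitals mark CCGGAAG or its reverse complement CTTCCGG, a core site of ETS factors such as GABP, and CACGTG, the E-box core bound by MYC and related factors.
Mrps6 chr16:92058216-92058335, plus strand: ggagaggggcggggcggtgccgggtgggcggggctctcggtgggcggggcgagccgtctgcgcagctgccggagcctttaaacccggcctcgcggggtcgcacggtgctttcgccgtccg
Mrps22 chr9:98601680-98601799, minus strand: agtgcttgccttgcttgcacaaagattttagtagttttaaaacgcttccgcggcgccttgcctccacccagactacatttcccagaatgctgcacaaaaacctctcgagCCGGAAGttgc
Mrpl12 chr11:120484517-120484636, plus strand: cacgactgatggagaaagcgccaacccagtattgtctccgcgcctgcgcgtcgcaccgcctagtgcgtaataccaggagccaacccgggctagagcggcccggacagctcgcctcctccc
Mrpl20 chr4:155802758-155802877, plus strand: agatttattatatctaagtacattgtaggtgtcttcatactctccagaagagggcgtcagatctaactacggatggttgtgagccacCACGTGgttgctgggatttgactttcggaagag
Mrpl24 chr3:87919424-87919543, plus strand: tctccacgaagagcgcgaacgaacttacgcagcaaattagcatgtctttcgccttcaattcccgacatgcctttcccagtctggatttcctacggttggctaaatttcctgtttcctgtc
Mrps26 chr2:130563637-130563756, plus strand: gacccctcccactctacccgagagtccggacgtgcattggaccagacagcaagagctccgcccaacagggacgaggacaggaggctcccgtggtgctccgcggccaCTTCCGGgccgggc

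Neither the strong nor the weak risers shared a motif in these 120 bases. Of the strong ones, Mrps22 held CCGGAAG and Mrpl20 held CACGTG, while Mrps6 and Mrpl12 held neither. Of the weak ones, Mrps26 held CTTCCGG and Mrpl24 held neither. In the 250 bases before the start, counting both strands, CCGGAAG occurred in 17 of the 66 genes (25.8%), against 10.2% of 17492 protein-coding genes. CACGTG, which is its own reverse complement, occurred in 5 of the 66 (7.58%), against 7.61%. GCGCATGCG, a core site of NRF1, occurred in 7 (10.6%) against 2.19%, and AAGATGGCG, a core site of YY1, in 2 (3.03%) against 0.84%. The median rise in WT cells was 1.41 on the log2 scale for genes with CCGGAAG and 1.51 for the genes without it. A match is a description of these letters and not a bound site.

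Levels below are log2 signals minus the 75th percentile of the same array, called relative log2 signal, and a gene was read by its brightest probe. A gene was called when the Benjamini-Hochberg adjusted p of limma over all genes was under 0.05. Trim28, the deleted gene, had a relative log2 signal of 2.45 ± 0.11 (SD, n = 4) in unstimulated WT and 0.94 ± 0.29 in unstimulated CKO cells, of 3.66 ± 0.20 and 0.97 ± 0.31 in stimulated cells, and of 2.00 ± 0.19 and 0.43 ± 0.24 in Treg, so every group followed its genotype label. Foxp3, which defines Treg, was at 3.26 and 3.34 in the WT and CKO Treg groups and between -3.76 and -1.31 in the 4 naive groups. Cd3e, a component of the T cell receptor complex, was well above background in all groups. The 75th percentile signal lay between 154 and 372 on the naive arrays, but between 53.9 and 200.2 on the WT Treg and between 31.3 and 116 on the CKO Treg arrays. The Treg arrays were dimmer on the whole, and the number of arrays limits the precision. The median SE of the difference between unstimulated CKO and WT naive cells was 0.22 over all genes tested. In such bulk RNA, fewer cells of a type and less RNA per cell cannot be told apart.

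Over the 75 genes the mean relative log2 signal was highest in stimulated WT cells and lowest in Treg. The 4 arrays of unstimulated WT cells gave means of 2.45, 2.75, 2.64 and 2.45, and those of unstimulated CKO cells 2.31, 2.05, 2.04 and 2.22. Stimulated WT cells gave 4.02, 4.17, 4.17 and 3.84, and stimulated CKO cells 3.58, 3.46, 3.29 and 3.61. The 4 naive groups did not overlap with one another in this mean. WT Treg gave 2.17, 1.84, 1.64 and 1.57, and CKO Treg 2.12, 1.72, 1.38 and 1.77, which overlapped with each other and, through replicate 1 of each, with the range of unstimulated CKO cells. The group means and SDs were 2.57 ± 0.15, 4.05 ± 0.16, 2.15 ± 0.13 and 3.48 ± 0.15 for WT unstimulated, WT stimulated, CKO unstimulated and CKO stimulated naive cells, and 1.80 ± 0.27 and 1.75 ± 0.31 for WT and CKO Treg.

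**Figure D1:**
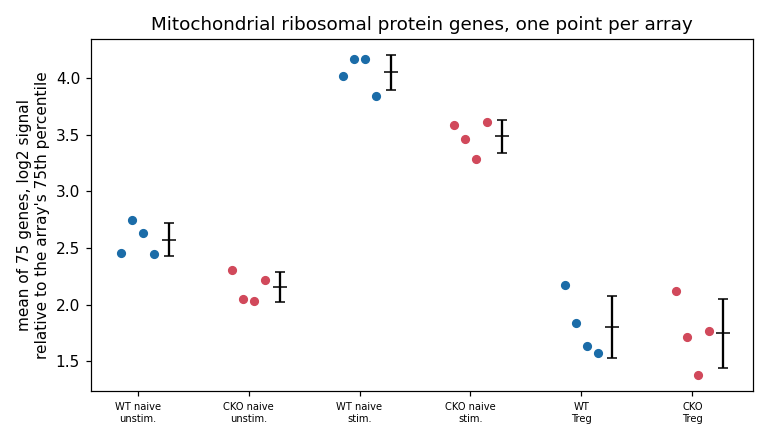
Mean relative log2 signal (log2 signal minus the array's 75th percentile) of the 75 mitochondrial ribosomal protein genes, 1 point per array in the 6 groups, WT in blue and CKO in red, with the group mean and SD as black bars. The stimulated arrays lie at 3.29 or above, and the CKO means of naive cells lie below the WT means in both states.

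The order of the groups was nearly the same gene by gene. Stimulated WT cells had the highest group mean for 75 of 75 genes, and stimulated CKO cells lay between stimulated and unstimulated WT cells for 75 of 75. The lowest group was CKO Treg for 46 genes, WT Treg for 28 and unstimulated CKO cells for 1. The Mrpl genes, with means of 2.75, 4.26, 2.37, 3.69, 1.99 and 1.95 in the order WT unstimulated, WT stimulated, CKO unstimulated, CKO stimulated, WT Treg and CKO Treg, and the Mrps genes, with 2.29, 3.71, 1.82, 3.17, 1.51 and 1.42, followed the same order. Among Mrpl genes the probe of Mrpl33 was the brightest and that of Mrpl37 the dimmest, and among Mrps genes those of Mrps16 and Mrps18b, which orders probes and not transcripts.

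**Figure D2:**
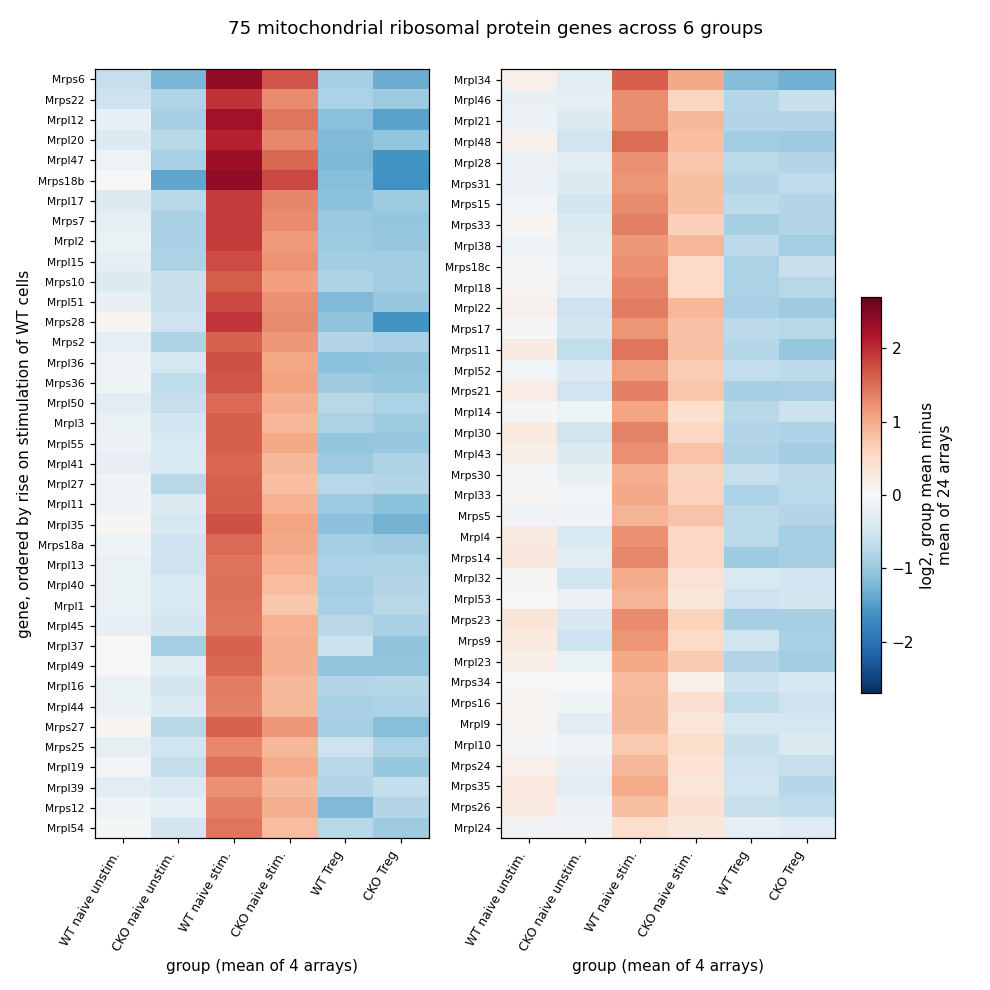
Group means of the 75 genes in the 6 groups (4 arrays each), as the log2 difference from the gene's mean over the 24 arrays, ordered by the rise on stimulation of WT cells. Every row is reddest in stimulated WT cells, and Mrps6 at the top rose by 3.02 against 0.56 for Mrpl24 at the bottom.

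After stimulation for 13 h the mitochondrial ribosomal protein genes were higher as a block. No time in culture is given here for the unstimulated cells. An effect of stimulation therefore cannot be told apart from one of 13 h on plates. In WT cells 75 of 75 genes rose, by limma with adjusted p under 0.05, where 61.8% of all genes were called and 31.6% were called higher. The median difference was 1.47 on the log2 scale with a range of 0.56 to 3.02, against a median of -0.03 over all genes tested. The arrays of stimulated and unstimulated cells did not overlap for any of the 75 genes, while 55.1% of all genes were without overlap. The difference exceeded 1 for 59 genes and 2 for 11 genes.

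Mrps6, a small subunit protein with a bacterial counterpart, had the largest rise. Its relative log2 signal was 3.03, 3.69, 3.41 and 3.62 in unstimulated and 6.41, 6.59, 6.53 and 6.31 in stimulated WT cells. The groups lay far apart, and the difference was 3.02 ± 0.17 (SE), 8.12-fold, with a limma adjusted p of 3.16e-12. Mrps22, a small subunit protein found only in mitochondria, went from 0.67, 0.94, 0.87 and 0.92 to 3.54, 3.35, 3.38 and 3.15, a rise of 2.51 ± 0.14, 5.68-fold (limma adjusted p = 2.07e-12). Its arrays lay close together within each group. Mrpl12, the stalk protein of the large subunit where elongation factors dock, had 3.97, 4.28, 3.99 and 3.80 before and 6.76, 6.59, 6.54 and 6.15 after stimulation, a rise of 2.50 ± 0.25, 5.67-fold (limma adjusted p = 1.6e-08). Mrpl20, a large subunit protein that binds ribosomal RNA, had 4.20, 4.79, 4.42 and 4.61 before and 7.18, 6.96, 6.97 and 6.73 after, a rise of 2.45 ± 0.24, 5.48-fold (limma adjusted p = 1.95e-08). For both large subunit genes every stimulated array lay far above every unstimulated one.

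The smallest rises, looked up after the values were seen, were those of Mrpl24 and Mrps26. Mrpl24, a large subunit protein, had 3.99, 3.89, 3.97 and 2.84 in unstimulated and 4.24, 4.41, 4.17 and 4.11 in stimulated WT cells, a rise of 0.56 ± 0.21 (limma adjusted p = 0.0232). Replicate 4 of the unstimulated cells was low and the other 3 lay just below the lowest stimulated array. Mrps26, a small subunit protein found only in mitochondria, rose by 0.56 ± 0.14, with 3.95 to 4.38 before and 4.54 to 4.85 after (limma adjusted p = 0.00168). Mrps12, the small subunit protein at the decoding centre, lay near the middle with 3.69, 4.06, 4.28 and 3.97 before and 5.38, 5.49, 5.83 and 5.22 after, a rise of 1.48 (limma adjusted p = 8.95e-09).

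CKO cells raised the same family. Here 72 of 75 genes rose, with 60.1% of all genes called and 29.6% called higher, and Mrpl24, Mrps16 and Mrps34 were not called. The median difference was 1.29 with a range of 0.12 to 3.19, against -0.08 over all genes, and the groups did not overlap for 71 genes, against 56.9% of all genes. Mrps18b, a small subunit protein, went from -2.33, -2.32, -2.15 and -1.70 to 1.23, 1.03, 1.65 and 0.34, a rise of 3.19 ± 0.36, 9.1-fold (limma adjusted p = 1.83e-07). Mrps6 rose by 2.92 ± 0.17, from 2.65 to 3.19 before to 5.38 to 6.01 after (limma adjusted p = 9.69e-12). Mrpl47, a large subunit protein near the exit of the growing chain, rose by 2.42 ± 0.33, from -0.65 to -0.11 up to 1.89 to 2.23 (limma adjusted p = 2e-06), and Mrpl12 by 2.33 ± 0.25, from 3.03 to 3.72 up to 5.39 to 5.92 (limma adjusted p = 6.11e-08). None of these 4 overlapped between states.

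Genes with a large rise in WT cells had a large rise in CKO cells, which were measured on separate arrays. Over the 75 genes Pearson's r between the WT and CKO differences was 0.91 and Spearman's rho 0.90; the points share probes, slides and scaling. The test of the difference between genotypes in the rise called 0 of 75 genes by limma, with 3.4% of all genes called; 5 members had an unadjusted p under 0.05, and the median was -0.15 with 58 of 75 below 0, against -0.02 over all genes. The direction depended on the processing. The members' median was 0.01 with quantile normalization or the authors' values, 0.00 on the brightest shared probes and -0.28 with normexp background correction. Relative to the median of all genes it was -0.13 with the 75th percentile and on the brightest shared probes. It was -0.02 with quantile normalization, -0.29 with normexp and 0.06 without a filter on dim probes, again relative to all genes. The largest of these 5 was Mrps34, which in CKO cells had 4.84, 4.30, 4.59 and 4.81 before and 4.77, 4.77, 4.31 and 5.17 after stimulation, and in WT cells 4.42, 4.74, 4.55 and 4.80 before and 5.60, 5.53, 5.45 and 5.33 after. The rise was 0.85 in WT (limma adjusted p = 0.00043) and 0.12 ± 0.19 in CKO (limma adjusted p = 0.595), and the difference between them, -0.73 ± 0.26, had a limma adjusted p of 0.151. Mrps34 was singled out after its values were seen.

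**Figure D3:**
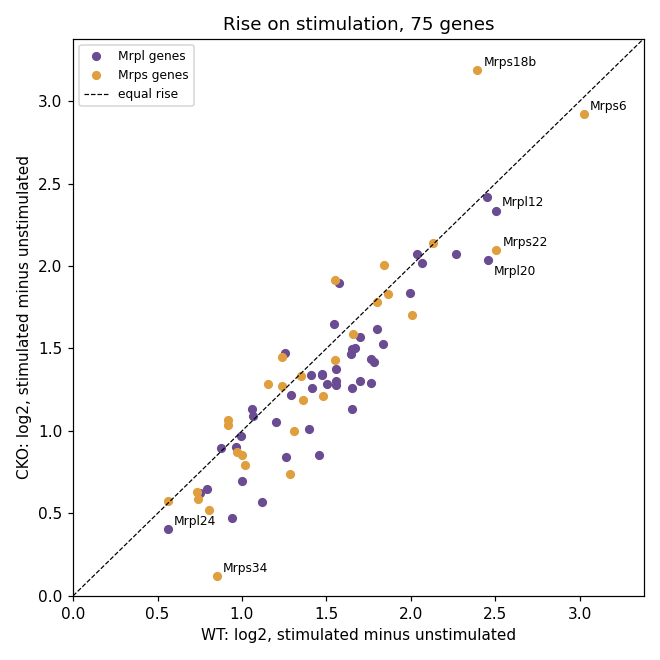
Rise on stimulation of the 75 genes in log2 units, WT cells on the horizontal and CKO cells on the vertical axis, Mrpl genes in purple and Mrps genes in orange, with a dashed line of equal rise. The rises of the genotypes are correlated (r = 0.91), and 58 of the 75 points lie below the line. Mrps18b lies above it and Mrps34 below it.

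The rise had similar medians in all classes of protein. In WT cells the median was 1.55 for the 48 large and 1.31 for the 27 small subunit proteins, and 1.41 for the 45 with a bacterial counterpart against 1.53 for the 30 without. In CKO cells the 4 medians lay between 1.27 and 1.30. No test was made of these differences.

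Much of the machinery around the mitochondrial ribosome rose too, while few cytosolic ribosomal proteins did. The counts are read against the 31.6% of all genes called higher in WT and 29.6% in CKO cells. Those of the cytosolic ribosomal proteins lie under these shares. Of 6 mitochondrial ribosomal proteins with other gene names, 5 rose in WT cells, with a median of 1.07 over the 6; Chchd1 rose by 1.79 ± 0.23 (limma adjusted p = 6.15e-07) and Gadd45gip1 by 1.62 ± 0.24 (limma adjusted p = 5.47e-06). Of 12 mitochondrial translation factors 9 rose, with a median of 0.73, led by the elongation factors Tsfm at 1.96 ± 0.23, Tufm at 1.79 ± 0.18 and Gfm1 at 1.61 ± 0.15. Of 12 mitochondrial tRNA synthetases 8 rose, with a median of 0.82, and Yars2 had the largest rise at 2.11 ± 0.15. Of 15 genes for assembly of the mitochondrial ribosome and processing of its RNA 12 rose, with a median of 0.74, among them the helicase Ddx28 at 2.24 ± 0.29. Among 17 genes of mitochondrial DNA and its transcription, 10 rose and 1, Ppargc1b, fell, with a median of 0.38. Of 76 oxidative phosphorylation subunits 62 rose and 2 fell, with a median of 0.97. Of 76 cytosolic ribosomal proteins 7 rose and none fell, with a median of -0.03, close to that of all genes. Their mean relative log2 signal was high, at 8.51 in unstimulated and 8.57 in stimulated WT cells. Saturation of their spots was not checked, here or in the comparisons below. In CKO cells the counts of rises were 4 of 6, 10 of 12, 7 of 12, 12 of 15, 8 of 17, 61 of 76 and 14 of 76 in the same order.

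The rise was also present within slides. Slides 1 and 4 of the 6 slides held stimulated and unstimulated cells of both genotypes, and the members' median there was 1.59 and 1.53 in WT and 1.16 and 1.14 in CKO cells. Markers of activated T cells moved with it: the summed log2 signal of 5 such genes was at most 5.30 in unstimulated and 6.19 to 6.59 in stimulated WT cells. Markers of other cells went down: 9 B cell genes from 2.55 to 4.51 to between -1.24 and 1.01, with Cr2 and Ebf1 no longer above background, and 8 myeloid genes from 4.29 to 6.73 to between 1.46 and 3.91. Their part in the rise was not tested.

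Without stimulation, the family was lower in CKO than in WT naive cells, by less than 1 log2 unit for every gene but Mrps18b. Of the 75 genes 23 fell and none rose, by limma with adjusted p under 0.05. Of all genes, 18.7% were called and 10.8% called lower. Negative differences were found for 73 of the 75, and the other 2, Mrps5 and Mrps34, were at 0.00 and 0.01. For Mrps5 this holds for its brightest probe alone, as its other kept probes were at -0.77, -1.02 and, on a dim probe, -0.41. The median of the 75 genes was -0.38, against 0.01 over all genes. For 25 genes the highest CKO array was lower than the lowest WT array, and 20.5% of all genes were without overlap in either direction. The 23 were 11 of 48 large and 12 of 27 small subunit proteins.

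Mrpl30, a large subunit protein, had 3.50, 3.69, 3.75 and 3.06 in WT and 2.85, 2.42, 2.53 and 2.98 in CKO cells, a fall of -0.81 ± 0.22, 1.75-fold (limma adjusted p = 0.0176). WT replicate 4 came close to the highest CKO array. Mrps27, an RNA-binding protein of the small subunit, had -0.50, -0.45, -0.55 and -0.98 in WT and -1.36, -1.52, -1.66 and -1.13 in CKO cells, a fall of -0.80 ± 0.19, 1.74-fold (limma adjusted p = 0.00829). Mrps21 had 1.98, 2.36, 2.29 and 1.66 against 1.59, 1.32, 0.95 and 1.46, a fall of -0.75 ± 0.25 (limma adjusted p = 0.0416). Mrpl22, which lines the exit tunnel, had 1.30, 1.64, 1.54 and 0.89 against 0.74, 0.64, 0.54 and 0.69, a fall of -0.69 ± 0.21 (limma adjusted p = 0.0309). In all 4 genes WT replicate 4 was the lowest WT array. 4 genes had falls larger than that of Mrpl30 but groups that overlapped. These were Mrps18b at -1.41 ± 0.36 and Mrpl37 at -0.93 ± 0.29 (limma adjusted p = 0.0126 and 0.0333), which have dim probes, and Mrps11 at -0.87 ± 0.26 and Mrps9 at -0.82 ± 0.20 (limma adjusted p = 0.025 and 0.0106). In Mrps11 and Mrps9, WT replicate 4 lay below the highest CKO array.

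This count depended on single arrays. Leaving out WT replicate 2 gave 3, leaving out WT replicate 3 or CKO replicate 2 or 3 gave 5, and leaving out one of the other 4 arrays gave 16 to 30. Of the 4 named genes, Mrps27 was called whichever 1 array was left out. Mrpl30 was lost without WT replicate 2 (-0.74, limma adjusted p = 0.0626) or 3 (-0.72, 0.0618) or CKO replicate 2 (-0.72, 0.0633) or 3 (-0.75, 0.0546). Mrpl22 was lost without those 4 arrays or WT replicate 1, with differences of -0.59 to -0.70 and limma adjusted p of 0.053 to 0.112. Mrps21 was lost without those 5 or CKO replicate 4, with -0.62 to -0.79 and 0.0527 to 0.132. The genotypes shared slides, and within slides 1, 3, 4 and 6 the members' median was -0.07, -0.67, -0.51 and -0.27, so slide 1 showed almost none of it; with slide as a block 28 genes were called.

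In stimulated cells 50 of 75 genes fell in CKO and none rose, by limma with adjusted p under 0.05, where 24% of all genes were called and 12.3% called lower, and all 75 differences were negative, from -0.83 to -0.14. The median was -0.59, against -0.05 over all genes. For 51 genes the highest CKO array was lower than the lowest WT array, against 25.5% of all genes without overlap. The 50 were 33 of 48 large and 17 of 27 small subunit proteins, and 33 of 45 with and 17 of 30 without a bacterial counterpart.

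Mrpl12 had 6.76, 6.59, 6.54 and 6.15 in WT and 5.92, 5.67, 5.39 and 5.73 in CKO cells, a fall of -0.83 ± 0.25, 1.78-fold (limma adjusted p = 0.0197). Mrpl20 had 7.18, 6.96, 6.97 and 6.73 against 6.15, 6.07, 5.71 and 6.69, a fall of -0.80 ± 0.24, 1.74-fold (limma adjusted p = 0.023), with CKO replicate 4 next to the WT range. Mrpl18, a large subunit protein that binds ribosomal RNA, had 4.18, 4.18, 4.35 and 4.11 against 3.42, 3.29, 3.25 and 3.67, a fall of -0.80 ± 0.16, 1.74-fold (limma adjusted p = 0.00131), and its groups were well apart. Mrpl27, a large subunit protein near the site where peptide bonds form, had 3.95, 4.13, 4.02 and 3.72 against 3.59, 3.28, 2.90 and 2.90, a fall of -0.79 ± 0.20 (limma adjusted p = 0.00973). A second, dim probe of Mrpl27 went the other way by 1.14, and the mean of both probes gave 0.17 (limma adjusted p = 0.571). Mrps6 fell by 0.70 ± 0.17 in stimulated and by 0.60 ± 0.17 in unstimulated cells (limma adjusted p = 0.00582 and 0.0192). Mrps12 fell by 0.40 ± 0.14 (limma adjusted p = 0.0432) in stimulated cells, with 5.38, 5.49, 5.83 and 5.22 against 5.25, 5.06, 4.87 and 5.14, and was at -0.13 in unstimulated ones (0.532).

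**Figure D4:**
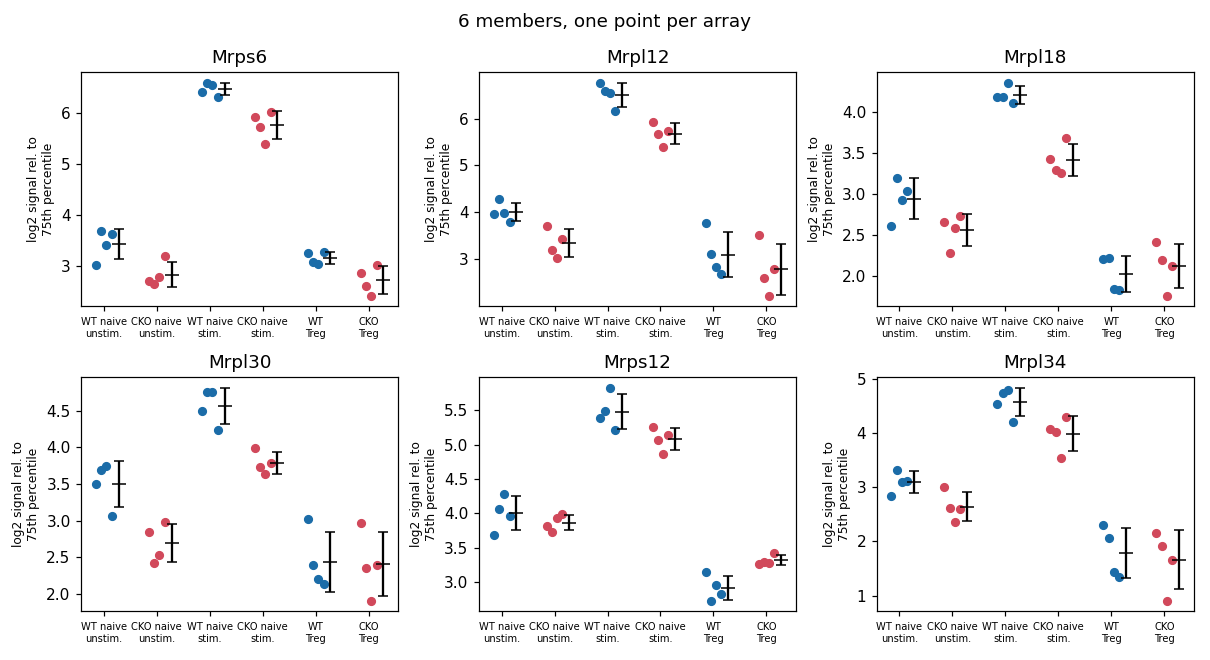
Relative log2 signal of 6 genes on each array, WT in blue and CKO in red, with the group mean and SD as black bars; the vertical axes differ between panels and do not start at 0. Mrps6 and Mrpl12 show the rise on stimulation, Mrpl18 and Mrpl30 lie lower in CKO naive cells, Mrps12 lies higher in CKO than in WT Treg, and Mrpl34 is lowest in Treg.

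The count in stimulated cells depended on scaling and on single arrays. Scaling each array on its brightest shared probes gave 11, quantile normalization 8 and the authors' own values 8. Leaving out replicate 2 or 3 of WT gave 15 and 22, and leaving out replicate 2 or 3 of CKO gave 20 and 13. The members' own median on the brightest shared probes was -0.18 in unstimulated and -0.24 in stimulated cells. With the scaling used for the main results it was -0.38 and -0.59. The median over all genes also moved, to 0.21 for unstimulated and 0.30 for stimulated cells on the brightest shared probes. Relative to the median over all genes, the members' median was -0.39 and -0.54 under both scalings. A scaling by 1 value per array cannot change this relative median, so it is no check on the fall. The relative median was -0.28 and -0.32 after quantile normalization and -0.45 and -0.79 with normexp background correction. Without 1 array, the adjusted p by limma of Mrpl12 reached 0.0525 to 0.0666 (without WT replicate 1 or 2 or CKO replicate 3; differences of -0.74 to -0.81) and of Mrpl20 0.0523 to 0.088 (without those or CKO replicate 2; -0.65 to -0.80). Both were also lost with quantile normalization or the authors' values, at -0.45 and -0.39 (limma adjusted p up to 0.16 and 0.162). Mrps12 was lost under 13 of the 18 alternatives, with a limma adjusted p of up to 0.81 and a difference as small as -0.05. Those 13 were 5 single arrays (WT replicate 1, 2 or 3 or CKO replicate 2 or 3; -0.28 to -0.43 and 0.0544 to 0.156) and 8 other settings, among them quantile normalization (-0.06, 0.764), the brightest shared probes (-0.05, 0.81) and slide as a block (0.0528). Mrpl18 was called under all 18 alternatives. Within slides 1, 2, 4 and 5 the members' median was -0.47, -0.74, -0.93 and -0.16, and with slide as a block 52 genes were called. The 75th percentile signal there was 154, 286, 300 and 263 on the WT and 372, 322, 367 and 201 on the CKO arrays. The CKO array was thus the brighter on slides 1, 2 and 4 and the dimmer on slide 5. The part of array brightness in the difference was not tested.

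The 2 lists of falls overlapped in part: 16 genes fell in both states, which is 69.6% of the 23 and 32% of the 50, and 18 genes were called in neither. These comparisons used separate arrays on partly shared slides. Over the 75 genes the 2 sets of differences had r = 0.42 and rho = 0.40. Members with dimmer probes had the more negative differences in unstimulated cells, with r = 0.53 between mean signal and difference, and no such trend was present in stimulated cells, with r = 0.03.

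Related lists had negative medians in CKO naive cells, and their counts are read against the 10.8% of all genes called lower in unstimulated and 12.3% in stimulated cells. Among oxidative phosphorylation subunits 13 of 76 fell in unstimulated and 24 of 76 in stimulated CKO cells, with medians of -0.32 and -0.50. Among cytosolic ribosomal proteins 25 of 76 fell in unstimulated and 14 of 76 in stimulated CKO cells, with medians of -0.48 and -0.47 and all 76 negative in both. Assembly genes fell in 4 and 2 of 15 cases, translation factors in 2 and 3 of 12, mitochondrial ribosomal proteins of other names in 0 and 3 of 6, and tRNA synthetases in 2 and 4 of 12. The 2 of 15 assembly genes in stimulated cells are 13.3%, and the 0 of 6 in unstimulated cells lie under the share of all genes. 1 tRNA synthetase gene, Nars2, rose in both states (limma adjusted p = 1.56e-09 and 4.18e-06), and Nrf1, a transcription factor of nuclear genes for mitochondria, rose by 0.84 ± 0.28 in unstimulated cells (limma adjusted p = 0.0397). Genes of mitochondrial DNA and transcription fell in 4 and 5 of 17 cases, with Myc, a growth regulator, at -0.55 ± 0.15 and -0.60 ± 0.15 (limma adjusted p = 0.0177 and 0.00782). Fastkd2, needed for maturing the ribosomal RNA, fell by 0.86 ± 0.17 and 0.73 ± 0.17 (limma adjusted p = 0.00256 and 0.00583).

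Markers of other cells also differed between the genotypes. The summed log2 signal of 9 B cell genes was 2.55 to 4.51 in WT and 3.90 to 5.66 in CKO unstimulated cells, and -1.24 to 1.01 and 0.45 to 2.47 in stimulated cells. For 8 myeloid genes it was 4.29 to 6.73 and 4.42 to 8.10, then 1.46 to 3.91 and 2.36 to 6.98, and for 7 CD8 and NK genes 3.63 to 4.42 and 4.06 to 5.22, then 2.52 to 3.18 and 2.74 to 3.40. For 5 T cell genes it was 8.04 to 8.28 and 7.50 to 7.78, then 8.79 to 8.95 and 8.30 to 8.87. For 5 activated T cell genes it was at most 5.30 and 5.15 in unstimulated cells, with overlap, then 6.19 to 6.59 and 6.02 to 6.23. Foxp3 was higher in CKO naive cells, at -1.82 against -2.78 unstimulated and -1.31 against -3.76 stimulated, differences of 0.96 ± 0.20 and 2.45 ± 0.20 (limma adjusted p = 0.00357 and 5.36e-08), with no overlap in either state. The summed ranges of the genotypes overlapped except for the T cell genes in unstimulated cells, and the part of these markers in the differences was not tested.

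In Treg no member passed the test between the genotypes. Of the 75 genes 0 were called by limma, with 3 at an unadjusted p under 0.05, where 4.3% of all genes were called; quantile normalization, brightest-probe scaling and the authors' values gave 1 each. The median was -0.05 with 28 differences above and 47 below 0, against 0.01 over all genes. The groups lay apart for 1 gene above and 2 below, while 8.32% of all genes were without overlap. The gene above was Mrps12, with 3.14, 2.73, 2.96 and 2.83 in WT and 3.27, 3.30, 3.27 and 3.43 in CKO Treg, a difference of 0.40 ± 0.14 (limma adjusted p = 0.132). The other 2 at an unadjusted p under 0.05 were Mrps6 at -0.43 ± 0.17 and Mrps28 at -0.51 ± 0.23 (limma adjusted p = 0.2 and 0.313).

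The difference between Treg and naive cells in the effect of genotype was tested directly. It called 0 of 75 genes by limma, where 0.391% of all genes were called, and 10 members had an unadjusted p under 0.05. It was above 0 for 71 of 75 genes with a median of 0.34, against 0.03 over all genes. The comparisons share the unstimulated arrays with those of the genotypes, so this count is not separate evidence. Within slides 2, 3, 5 and 6 the members' median difference in Treg was -0.03, -0.06, -0.25 and 0.23.

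**Figure D5:**
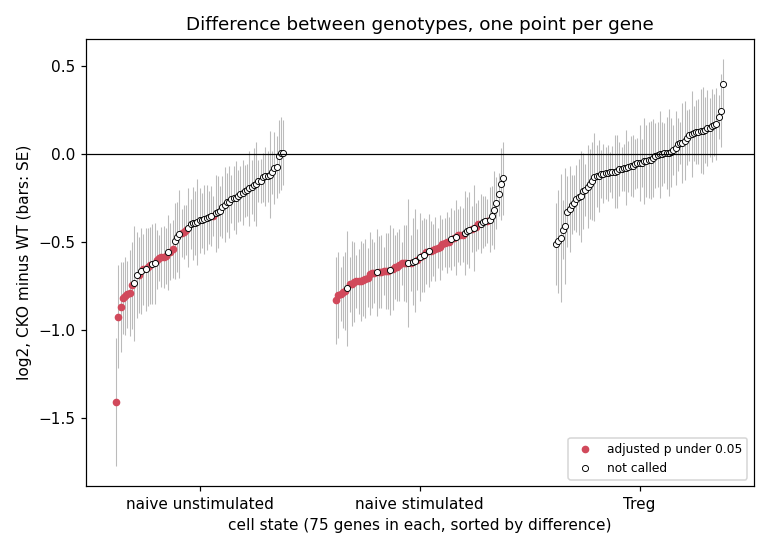
Difference between CKO and WT in log2 units with its SE for each of the 75 genes, sorted within each cell state, with called genes in red and the others open. Nearly all points lie below 0 in naive cells, with 23 and 50 called, and they lie around 0 in Treg, with 0 called.

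Treg had lower levels of the family than unstimulated naive cells. In WT mice 70 of 75 genes were lower and none higher, where 48.3% of all genes were called and 29.2% called lower, with a median of -0.76 against -0.09 over all genes. Mrpl24, Mrpl37, Mrps6, Mrps22 and Mrps25 were not called, and the groups did not overlap for 52 genes, against 34.7% of all genes. Mrpl34, a large subunit protein with a bacterial counterpart, had 2.83, 3.32, 3.10 and 3.12 in naive and 2.30, 2.06, 1.44 and 1.35 in Treg cells, a difference of -1.31 ± 0.25, 2.47-fold (limma adjusted p = 0.000385). Mrps14 had 1.80, 2.06, 1.98 and 1.37 against 1.08, 0.60, 0.24 and 0.20, a difference of -1.27 ± 0.23 (limma adjusted p = 0.00021). In both genes Treg replicate 1 was the highest Treg array. Mrps28, which is related to a bacterial protein that holds the message, had -1.16 ± 0.23 (limma adjusted p = 0.00056) and Mrpl35 -1.15 ± 0.20 (limma adjusted p = 0.000152). Mrps12 was lower by -1.08 (limma adjusted p = 6.13e-06), and Mrps6, the largest riser on stimulation, was at -0.28 ± 0.17 (limma adjusted p = 0.182).

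In CKO mice 20 of 75 genes were lower and none higher in Treg, where 28.1% of all genes were called and 16.5% called lower; the median was -0.40 against -0.07 over all genes. All 20 were among the 70 of WT mice, of which they are 28.6%. The groups did not overlap for 18 genes, against 30.8% of all genes. Mrps28 had 3.11, 2.64, 2.87 and 2.81 in naive and 2.42, 1.78, 1.25 and 1.78 in Treg cells, a difference of -1.05 ± 0.23, 2.07-fold (limma adjusted p = 0.00231). Mrpl34 had -0.98 ± 0.25 (limma adjusted p = 0.00637), Mrpl35 -0.85 ± 0.20 (limma adjusted p = 0.00352) and Mrpl23 -0.75 ± 0.22 (limma adjusted p = 0.016). The count was 10 without naive replicate 1, 13 without naive replicate 4, 8 without Treg replicate 3 and 42 without Treg replicate 1. Mrpl23 was lost without naive replicate 1 (-0.69, limma adjusted p = 0.0503) or Treg replicate 3 (-0.56, 0.076).

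The 6 dimmest arrays by 75th percentile were Treg arrays, and the counts followed the scaling. On the brightest shared probes 23 genes were called in WT and 8 in CKO, where the median over all genes was 0.40 and 0.21. The members' own median on those probes was -0.27 and -0.12, against -0.76 and -0.40 with the 75th percentile. Relative to the median over all genes it was -0.67 and -0.33 under both scalings. A scaling by 1 value per array cannot change this relative median. The relative median was -0.46 and -0.17 with quantile normalization and -1.25 and -0.83 with normexp background correction. Its CKO value thus moved by more than 1.5 times each way. Within slides 3 and 6, which held both cell types, the members' median was -0.87 and -0.92 in WT and -0.31 and -0.47 in CKO cells. Oxidative phosphorylation subunits, 66 of 76 lower with a median of -0.74, and cytosolic ribosomal proteins, 48 of 76 lower with a median of -0.68, were also lower in WT Treg. Markers of other cells moved with the difference. In WT mice the summed log2 signal of the CD8 and NK genes was 3.63 to 4.42 in naive and 2.65 to 3.49 in Treg cells and that of the T cell genes 8.04 to 8.28 and 7.75 to 7.91, neither with overlap, while the B cell genes, at 2.55 to 4.51 and 1.86 to 2.93, and the myeloid genes, at 4.29 to 6.73 and 2.77 to 6.24, overlapped. In CKO mice the B cell genes were at 3.90 to 5.66 and 2.07 to 3.36 and the CD8 and NK genes at 4.06 to 5.22 and 2.41 to 3.31, without overlap, while the T cell genes, at 7.50 to 7.78 and 7.35 to 7.67, and the myeloid genes, at 4.42 to 8.10 and 3.07 to 6.77, overlapped. Ebf1 and Ncr1 were above background on no Treg array. The part of array brightness and of these markers in the difference was not tested.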

How the data were processed

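Cy3-labelled RNA of 24 samples was hybridized to Agilent arrays, 4 arrays on each of 6 slides. The deposited scanner files hold the processed signal, an intensity that per the file headers was corrected for background, and the submitters' processing notes name Agilent Feature Extraction 9.5. The authors' normalized values, also a deposited intensity, had one distribution in every column and served as an alternative. Outlier spots were left out, the log2 signal was centred on the array's 75th percentile, and a probe was kept when well above background on at least 3 of 4 arrays of 1 group, which kept 25198 of 41174 probes (121 of the 125 of the members). The brightest kept probe stood for a gene. Of the members, 43 had 1 kept probe and 32 had several, and for 28 of the 32 all probes rose in stimulated WT cells. All kept probes were lower in CKO than in WT cells for 21 of the 32 unstimulated and for 20 stimulated. A model of 6 group means was fitted over the 24 arrays (R 4.3.3, limma 3.58.1), and 9 contrasts were tested 2-sided with Benjamini-Hochberg adjustment over 16643 genes. The fit was tested on simulated data.

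The members and lists were chosen with earlier results of these data known, and subunit classes were assigned by hand. After values were seen, 1 gene that is no mitochondrial factor was removed from the assembly list, and kinases and paralogs caught by the name pattern were removed from the cytosolic ribosomal list. The NRF1 motif was also shortened by 1 base after a first search with the longer form, so its counts are those of the shorter form alone. Named members were up to 4 called rises and up to 4 called falls per 2-group contrast, the largest without overlap between groups, plus Mrpl12 and Mrps12; members named beyond these were chosen after their values were seen. Of the related lists, up to 3 called genes per direction were named. Replicate numbers were checked as pairs by the correlation of deviations from group means: all 4 exceeded 0.1 only for CKO Treg against CKO naive cells (0.37 to 0.49). Only equal numbers were compared, so the check cannot settle pairing. Mice of replicate 1 were 7 weeks old for CKO Treg and 6 weeks old for unstimulated CKO naive cells. The numbers were therefore taken as shared numbers in every comparison. Alternatives were other scalings, background corrections, filters, probe rules, slide and replicate blocks, and leaving out each array. Motifs were searched with Python 3.11.15 in RefSeq start regions of GRCm38.p6, and figures were drawn with matplotlib 3.10.9.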

Additional observations from a re-analysis of the deposited data

Results flagged for a closer look

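The check covered 132 groups of 4 arrays, those of the named members and of the mean level of the members. In 3 of them, the gap of 1 array to the nearest other was a larger share of the group's range than Dixon's critical value. Chance flags about 1 in 20 groups, so 3 is not more than chance gives. Mrpl23 in stimulated CKO cells had 6.78 on replicate 4 and 5.88 to 6.02 on the other 3 arrays. Mrpl35 in unstimulated CKO cells had 2.62 on replicate 1 and 2.27 to 2.32 on the others. Mrps18b in unstimulated WT cells had -1.86 on replicate 4 and -0.44 to -0.27 on the others, and it was the only WT array within the range of the unstimulated CKO cells.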

How the results depend on the processing

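The rise on stimulation held under all alternatives: 70 to 75 genes were called in WT and 65 to 72 in CKO cells, and 74 to 75 and 70 to 73 without single arrays. The CKO falls were less stable. In unstimulated cells the 23 became 9 on the brightest shared probes, 1 with normexp, 7 without a filter on dim probes and 8 with only the compared arrays, and 3 to 30 without single arrays. In stimulated cells the 50 became 8 with quantile normalization, 11 on the brightest shared probes, 8 with the authors' values and 22 without a filter, and 13 to 50 without single arrays. In Treg the 0 became 1 with quantile normalization, the brightest shared probes and the authors' values, and stayed 0 without single arrays. Treg against naive cells gave 23 on the brightest shared probes for the 70 of WT (63 to 70 without single arrays), and 8 on those probes and 52 with normexp for the 20 of CKO (8 to 42 without single arrays). For genotype by stimulation the 0 became 1 on the brightest shared probes; genotype by cell type gave 0 throughout. Mrpl27 in stimulated cells turned to 0.17 as the mean of its probes. With the replicate block 16 and 41 genes fell in unstimulated and stimulated CKO cells, and 25 were lower in CKO Treg than in CKO naive cells. The block moved no count by over 1.5 times, and whether the numbers pair samples is not known. The cause of these changes was not tested. With 4 arrays a group, differences near the median SE of 0.22 could not be resolved, and the Treg arrays had the lowest signals.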

Other observations

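One gene of the mitochondrial tRNA synthetase list went against its list. Nars2, which charges the mitochondrial asparagine tRNA, was higher in CKO cells by 3.00 ± 0.20 unstimulated, 1.73 ± 0.20 stimulated and 3.80 ± 0.20 in Treg (limma adjusted p = 1.56e-09, 4.18e-06 and 2.33e-11). It was the only called rise of that list in each of these 3 comparisons. Pprc1, a coactivator of nuclear genes for mitochondria, was lower in CKO than in WT cells by -0.59 ± 0.10 unstimulated and by -0.62 ± 0.10 in Treg (limma adjusted p = 0.000605 and 0.000466), and Fastkd2 was lower in Treg by -0.67 ± 0.17 (limma adjusted p = 0.0274), while no mitochondrial ribosomal protein gene was called there.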
